A study of Mus musculus with 12 samples.

Results

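A set of 10 markers of macrophage identity and state was examined in the kidneys of mice with and without chronic kidney disease (CKD) and in CKD mice given iron. The genes are Adgre1, Cd68, Csf1r, Lyz2, Itgam, Itgax, Mrc1, Cd163, Trem2 and Gpnmb, and they were taken from the expression table by gene name. All 10 were found among 22007 genes. RNA sequencing was done on whole kidneys of 12 mice, with 1 library per mouse and 4 mice in each of 3 groups. The mice were C57BL/6 wild-type animals. CKD mice ate a diet with 0.2% adenine, a purine that is oxidised to 2,8-dihydroxyadenine, whose crystals injure the tubules, from 8 to 16 weeks of age, and control mice ate the same diet without adenine over the same weeks. The CKD+Fe mice were CKD mice that were also injected i.p. once a week with iron dextran at 0.5 g/kg. Both other groups were injected weekly with PBS. The tissue was not sorted, so each value is an average over every cell of the kidney.

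Macrophages are phagocytes that live in every tissue. In the kidney a resident population is seeded in part before birth, and monocytes from the blood add to it after injury. They clear dead cells and crystals, recycle iron from engulfed red cells, release cytokines and can drive or resolve fibrosis. Their survival depends on signalling through the receptor encoded by Csf1r, and the transcription factor PU.1, encoded by Spi1, opens many of their genes. F4/80 (Adgre1) and CD68 mark the lineage, and lysozyme (Lyz2) marks myeloid cells more widely. The integrins CD11b (Itgam) and CD11c (Itgax) mark myeloid subsets. The scavenger receptors CD206 (Mrc1) and CD163 are used as signs of alternative activation, and TREM2 and GPNMB rise in macrophages that handle lipid and lysosomal load.

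RefSeq promoter sequences of build GRCm38.p6, from 250 bases before to 50 bases after the start of the gene, were matched for 8 of the 10 markers (all but Adgre1 and Csf1r). The core letters that PU.1 binds, GAGGAA, were searched on both strands, where the other strand reads TTCCTC. They were present in 4 of the 8 promoters (Mrc1, Itgam, Cd68 and Trem2), compared with 28.3% of 32851 promoters of the same length. The E-box letters CACGTG, bound by the MITF and TFE factors of lysosomal genes, were in 0 of the 8 and in 7.15% of all promoters, and the letters CATGTG were in 1 of the 8 (Mrc1) and in 14.2% of all. The 120 bases upstream of 3 of the genes with the PU.1 letters are shown 5′ to 3′ because they are among the 5 markers with the largest log2 fold change in CKD and because the letters lie close to the start. The capitals mark GAGGAA or TTCCTC. All 3 lie on the plus strand, at chr7:128062520-128062639 for Itgam, chr17:48346281-48346400 for Trem2 and chr2:14229294-14229413 for Mrc1.
Itgam upstream sequence: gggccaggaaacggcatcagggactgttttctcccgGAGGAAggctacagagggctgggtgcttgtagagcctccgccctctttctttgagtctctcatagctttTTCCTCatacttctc
Trem2 upstream sequence: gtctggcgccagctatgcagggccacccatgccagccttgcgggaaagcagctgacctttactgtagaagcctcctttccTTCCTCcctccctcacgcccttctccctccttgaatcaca
Mrc1 upstream sequence: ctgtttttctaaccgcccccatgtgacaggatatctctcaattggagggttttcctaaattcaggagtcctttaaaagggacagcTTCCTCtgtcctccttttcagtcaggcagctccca
The upstream stretch of Itgam held the letters at 2 places, 84 and 15 bases before the start. That of Trem2 held them at 1 place, 40 bases before the start, and that of Mrc1 at 1 place, 35 bases before it. Each distance is from the RefSeq start to the first base of the match. The gene span given below for Mrc1 begins earlier, at 14229392, so the last bases of its stretch lie inside that span. A match is a description of the letters, and binding was not measured.

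Expression is given in FPKM, which counts fragments relative to transcript length and to the mapped reads of the library, so levels of different genes can be set side by side. FPKM summed over all genes ran from 607951 to 707843 in control mice, from 503438 to 603556 in CKD mice and from 536139 to 572074 in CKD+Fe mice. The read depth was estimated only relative to the deepest library, from the smallest steps between low values, and ran from 0.685 to 1. It was approximate, since 64.4% to 78.0% of the low values lay within 0.2 of a whole read. Nephron genes such as Umod were present in all 12 mice, at 1833 to 3182 FPKM summed over 6 nephron markers in control mice. The mouse farthest from the rest of its group was control mouse 3, with 595 genes at least 2-fold away, CKD mouse 3, with 805, and CKD+Fe mouse 1, with 442. The next highest counts were 167 in control mouse 4, 179 in CKD mouse 4 and 225 in CKD+Fe mouse 2. Without these 3 mice 10 of 10 markers were called higher in CKD against control mice and 0 of 10 were called in CKD+Fe against CKD mice, as with them. With all 12 mice, 54.6% of all genes tested were called higher and 13.3% lower in the first comparison. In the second 0.00761% were higher and 0% lower. The shares of all genes without the 3 mice are not given. Mice are numbered 1 to 4 within a group, and values below follow that order.

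In control kidneys Lyz2 was the most abundant of the markers, at 48.3 ± 28.1 FPKM (SD, n = 4), followed by Csf1r at 18.4 ± 1.67 FPKM and Cd68 at 8.93 ± 5.66 FPKM. Adgre1, Gpnmb, Mrc1, Itgax and Trem2 had means from 2.21 down to 0.941 FPKM, and their ranges overlapped. Itgam had a lower mean, at 0.508 ± 0.0631 FPKM, and Cd163 was lowest at 0.0934 ± 0.0406 FPKM. The order changed in CKD kidneys. Lyz2 was again first, at 1276 ± 450 FPKM, but Cd68, at 91.9 ± 38.8 FPKM, stood above Csf1r, at 62.7 ± 16.1 FPKM, with overlapping ranges. Trem2 and Gpnmb, at 41.8 ± 21.3 and 39.9 ± 15.0 FPKM, came before Adgre1, at 27.0 ± 7.80 FPKM, and Mrc1, at 25.3 ± 6.26 FPKM, again with overlapping ranges. Itgax and Itgam were nearly level at 17.9 FPKM each, and Cd163 was last at 3.26 ± 2.67 FPKM.

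**Figure D1:**
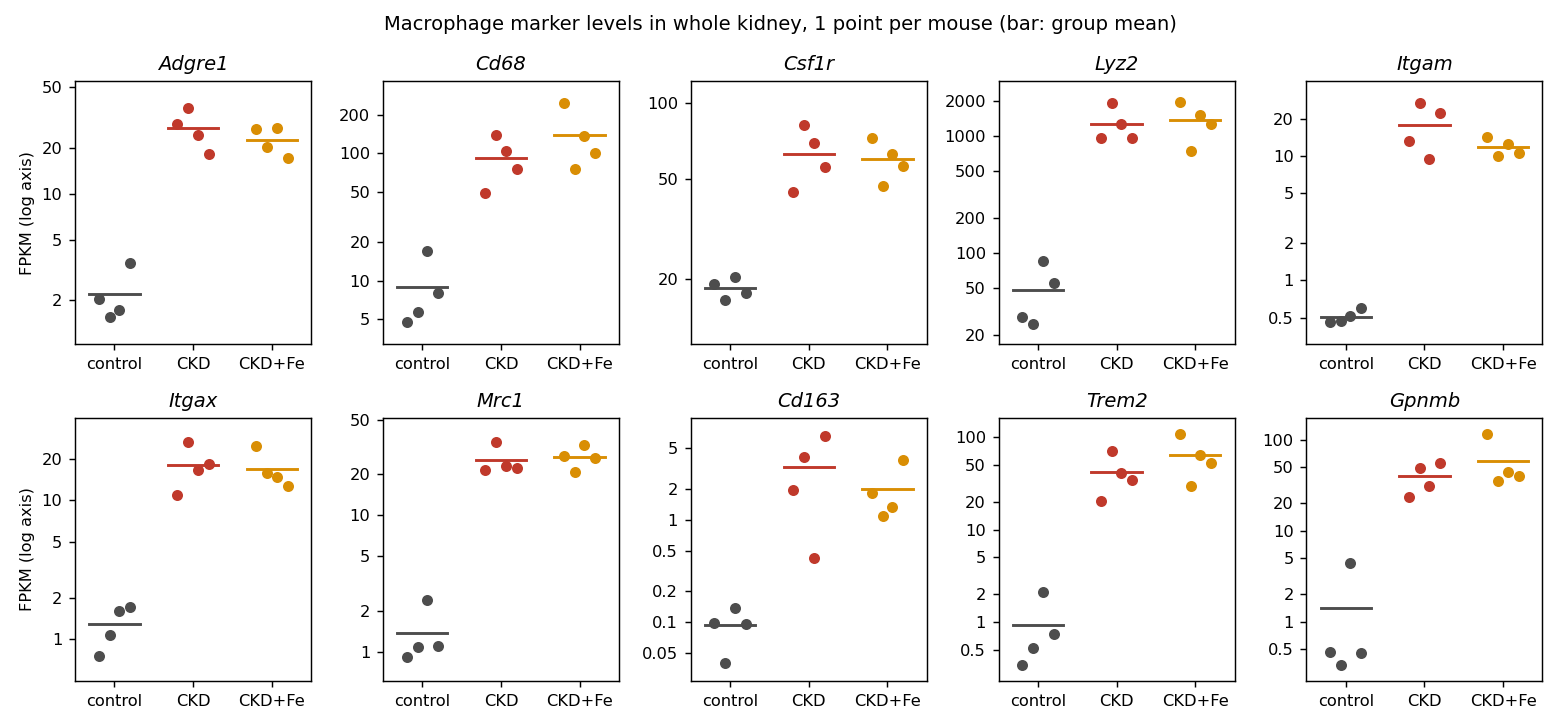
FPKM (log axis) of the 10 markers in each mouse, with 1 point per mouse and a bar at the mean of each group of 4. For every marker the 4 CKD and the 4 CKD+Fe mice lie above the 4 control mice, and the CKD and CKD+Fe mice overlap.

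The first comparison asked which macrophage markers differ in the diseased kidney. All 10 markers rose in CKD compared with control mice (limma, adjusted p from 4.80e-08 to 0.00212, Benjamini-Hochberg over 13148 genes), and no CKD mouse overlapped a control mouse for any of them. This has to be read against a table in which many genes were higher in CKD: 54.6% of all genes tested were called higher and 13.3% lower, and 44.6% had every CKD mouse above every control mouse. The median log2 fold change was 3.38 over the markers and 0.50 over all genes tested. Rescaling the mice to a common median of ratios brought the median of all genes to -0.03, with 27.2% of genes called higher and 31% lower, and all 10 markers were still higher, with a median of 2.87. In bulk tissue fewer or more cells of a type and less or more RNA per cell cannot be told apart, so a rise of these transcripts is a rise per kidney RNA.

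Among the lineage and myeloid markers, Lyz2, which encodes the lysozyme of phagocytes (chromosome 10, 117277334 to 117282274, minus strand, GRCm38), had the largest log2 fold change of FPKM + 1. It stood at 28.2, 24.8, 85.2 and 55.0 FPKM in control mice and at 970, 1915, 1265 and 952 FPKM in CKD mice. Every CKD mouse was far above the highest control mouse, and that fold change was 4.81 (SE 0.38). Only 0.0837% of all genes tested had a larger one. The near-identical neighbour Lyz1, whose reads may be shared with Lyz2, ran from 0.145 to 0.804 FPKM in control mice and from 6.44 to 12.2 FPKM in CKD mice, far below Lyz2.

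Cd68, a glycoprotein of the lysosome membrane (chromosome 11, 69664213 to 69666153, minus strand), stood at 4.77, 5.74, 17.2 and 8.02 FPKM in control mice and at 49.1, 139, 104 and 74.9 FPKM in CKD mice. Its log2 fold change was 3.28 (SE 0.41), and control mouse 3 was the highest of its group. Adgre1, an adhesion receptor of the lineage (chromosome 17, 57358686 to 57483529, plus strand), stood at 2.03, 1.54, 1.72 and 3.53 FPKM in control mice and at 28.7, 36.7, 24.3 and 18.2 FPKM in CKD mice. Here control mouse 3 was not raised, and the highest control mouse was mouse 4. The log2 fold change of Adgre1 was 3.12 (SE 0.23).

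Csf1r, the receptor for the growth factors CSF1 and IL-34 (chromosome 18, 61105572 to 61132149, plus strand), had the smallest log2 fold change of the 10, at 1.68 (SE 0.18). Its control values were close together, at 19.1, 16.6, 20.4 and 17.6 FPKM, and its CKD values were 44.5, 81.4, 69.2 and 55.5 FPKM. The ratio of the group means was 3.40, compared with 10.3 for Cd68, 12.2 for Adgre1 and 26.4 for Lyz2. Both ligands rose as well. Csf1 had a log2 fold change of 2.44 (SE 0.21), from 3.28 ± 0.591 to 22.4 ± 4.48 FPKM, and Il34 one of 1.73 (SE 0.22), from 31.4 ± 6.62 to 108 ± 28.0 FPKM (n = 4 each).

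The integrins that label myeloid cells were low in control kidneys. Itgam, the alpha chain of CD11b/CD18 (chromosome 7, 128062640 to 128118491, plus strand), stood at 0.457, 0.467, 0.514 and 0.595 FPKM in control mice and at 13.2, 26.8, 9.45 and 22.1 FPKM in CKD mice, a log2 fold change of 3.54 (SE 0.25). Its control values were the tightest of the 10 beside those of Csf1r, and its CKD values spread widely. Itgax, the alpha chain of CD11c/CD18 and the next gene on the same strand (chromosome 7, 128129547 to 128150657), stood at 0.754, 1.07, 1.59 and 1.72 FPKM in control mice and at 10.9, 26.2, 16.4 and 18.1 FPKM in CKD mice, with a log2 fold change of 3.01 (SE 0.25). Their shared beta chain Itgb2 rose alongside, by 3.01 (SE 0.28). Itgam had a second row in the table, an overlapping gene model named Gm49368 in GENCODE M21 that did not pass the filter on low values. That row held 0.138 ± 0.145 FPKM in control and 1.05 ± 0.745 FPKM in CKD mice and was not added to Itgam, whose control values it would raise in part.

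Neither integrin belongs to macrophages alone, since neutrophils carry CD11b and dendritic cells CD11c. Lyz2 is likewise a gene of myeloid cells, neutrophils among them. The summed level of 11 neutrophil genes was 2.17 to 7.97 FPKM in control and 63.0 to 236 FPKM in CKD mice, with no overlap. All 6 of the neutrophil genes that passed the filter rose. Ly6g, the neutrophil marker of the gate in the study, did not pass it, at 0.249 ± 0.21 FPKM in control and 0.944 ± 0.274 FPKM in CKD mice, and 3 of the 11 were listed at 0 in every control mouse. The 8 dendritic cell genes summed to 5.89 to 9.66 FPKM in control and 8.09 to 18.3 FPKM in CKD mice, which overlapped. Of the 6 tested 4 were called higher, a share near the 54.6% of all genes. After median-of-ratios rescaling 4 were higher and 1 lower, where 27.2% and 31% of all genes were. After quantile normalization 0 were higher and 1 lower. The part of these cells in the rise of Itgam, Itgax and Lyz2 was not tested.

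Of the scavenger receptors, Mrc1 (chromosome 2, 14229392 to 14332057, plus strand), the mannose receptor, stood at 0.914, 1.08, 2.40 and 1.09 FPKM in control mice and at 21.6, 34.7, 23.0 and 22.1 FPKM in CKD mice. It rose by 3.49 (SE 0.21), and its 3 lower CKD mice were close together. Cd163, which takes up haemoglobin bound to haptoglobin (chromosome 6, 124304656 to 124330527, plus strand), stood at 0.0974, 0.0402, 0.139 and 0.0967 FPKM in control mice and at 1.96, 4.10, 0.419 and 6.57 FPKM in CKD mice. The CKD mice differed more than for any other marker, and CKD mouse 3 was nearest to the control mice. Its log2 fold change of FPKM + 1, 1.71 (SE 0.40, adjusted p = 0.00212 by limma), understates the change because the control values lie far below the added 1. With 0.1 added in place of 1 it was 3.62. The control values correspond to roughly 4 to 14 reads of Cd163 per library.

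Trem2, a lipid-sensing receptor (chromosome 17, 48346401 to 48354147, plus strand), and Gpnmb, a glycoprotein of lysosomes and the cell surface (chromosome 6, 49036546 to 49070929, plus strand), had the next log2 fold changes of FPKM + 1 after Lyz2. With 0.1 added in place of 1 they were 5.47 for Trem2 and 5.41 for Gpnmb, above 4.84 for Lyz2. Trem2 stood at 0.347, 0.530, 2.14 and 0.748 FPKM in control mice and at 20.4, 70.9, 41.3 and 34.6 FPKM in CKD mice, a log2 fold change of 4.41 (SE 0.40). Gpnmb stood at 0.467, 0.333, 4.44 and 0.453 FPKM in control mice and at 23.6, 48.9, 31.3 and 55.8 FPKM in CKD mice, a log2 fold change of 4.29 (SE 0.46). Control mouse 3 lay far above the other control mice for both genes, and still below every CKD mouse. The adaptor Tyrobp, through which TREM2 signals, rose by 3.41 (SE 0.29), from 27.9 ± 11.3 to 305 ± 110 FPKM.

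**Figure D2:**
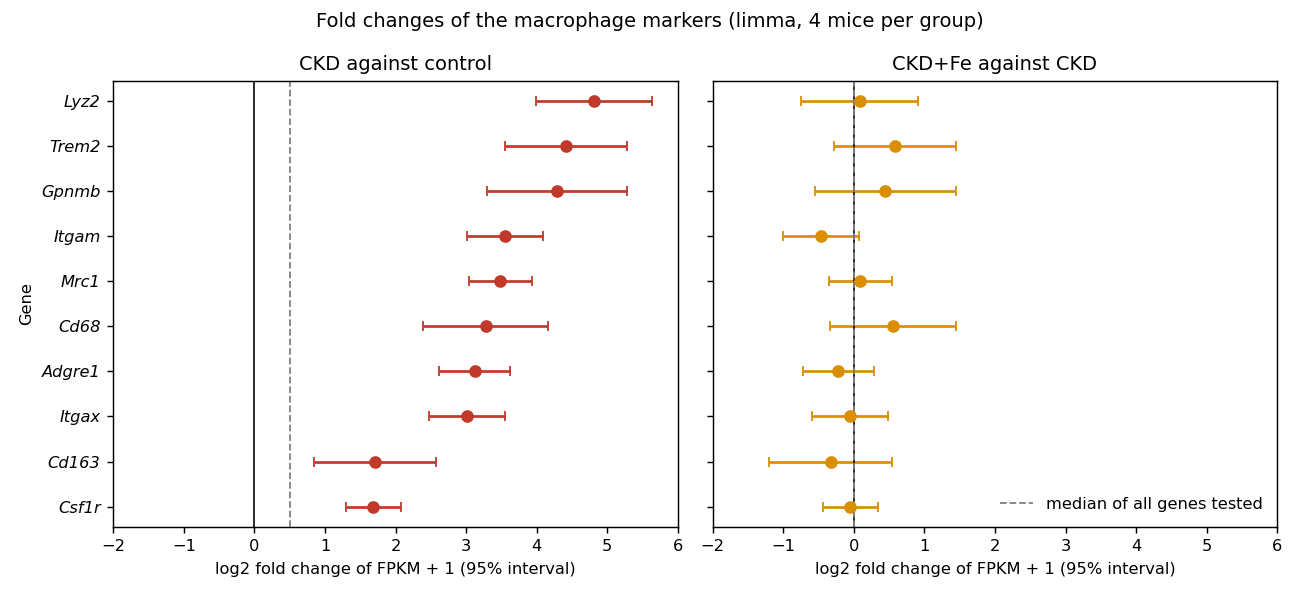
Log2 fold change of FPKM + 1 with its 95% interval for each marker, in CKD against control mice (left) and CKD+Fe against CKD mice (right), with 4 mice per group and a dashed line at the median of all genes tested. On the left the estimates run from 1.68 (Csf1r) to 4.81 (Lyz2), and on the right every interval includes 0.

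Because all markers rose, their levels were next set against Adgre1 in the same mouse. A plain ratio of FPKM removes any scaling between mice. With 1 added to each FPKM, as in the limma fit, it is not fully removed where values lie near or under 1. Most genes were lower relative to Adgre1 in CKD, since Adgre1 itself was higher there: the limma fit on the ratios called 97.7% of all genes lower and 0.373% higher. Csf1r was among the genes that were lower, so its direction is not particular to it. Control mice had 9.39, 10.8, 11.8 and 4.99 Csf1r FPKM per Adgre1 FPKM, and CKD mice had 1.55, 2.22, 2.84 and 3.06. The groups did not overlap (9.24 ± 3.01 against 2.42 ± 0.679, n = 4 each, exact permutation test, two-sided p = 0.0286, which is the lowest possible with 4 mice in each group), and the log2 difference was -1.44 with 1 added to each FPKM and -1.91 without. Itgam moved the other way when nothing was added, from 0.249 ± 0.0643 to 0.70 ± 0.376 per Adgre1, with every CKD mouse above every control mouse (exact permutation p = 0.0286). With 1 added its difference was 0.42 and the exact permutation p was 0.371, so this result depends on how values under 1 FPKM are treated.

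Lyz2, Trem2 and Gpnmb had higher means relative to Adgre1 in CKD, but control mouse 3 lay among the CKD mice each time. Trem2 per Adgre1 was 0.171, 0.344, 1.24 and 0.212 in control mice and 0.710, 1.93, 1.70 and 1.90 in CKD mice (exact permutation p = 0.0571). Lyz2 per Adgre1 was 23.7 ± 17.1 in control and 47.6 ± 9.21 in CKD mice (n = 4 each, exact permutation p = 0.0286 with 1 added and 0.0571 without). Gpnmb per Adgre1 was 0.787 ± 1.19 and 1.63 ± 0.990 (n = 4 each, exact permutation p = 0.114). The ratios of Cd68, Itgax and Mrc1 overlapped between the groups, with exact permutation p from 0.257 (Mrc1) to 0.771 (Cd68) at 4 mice per group without the added 1 and from 0.343 to 0.80 with it.

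The limma fit on these ratios called 3 of the 9 markers higher relative to Adgre1 (Lyz2 by 1.69, Trem2 by 1.29 and Gpnmb by 1.17) and 2 lower (Csf1r by -1.44 and Cd163 by -1.41), beside the shares of all genes given above. Every ratio in that fit shares the spread of Adgre1 itself, so its p values are too small, and the exact tests on single ratios stand beside them for that reason. The Cd163 ratio turned sign without the added 1, to a log2 difference of 1.03 (exact permutation p = 0.4), so no direction is given for it.

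**Figure D3:**
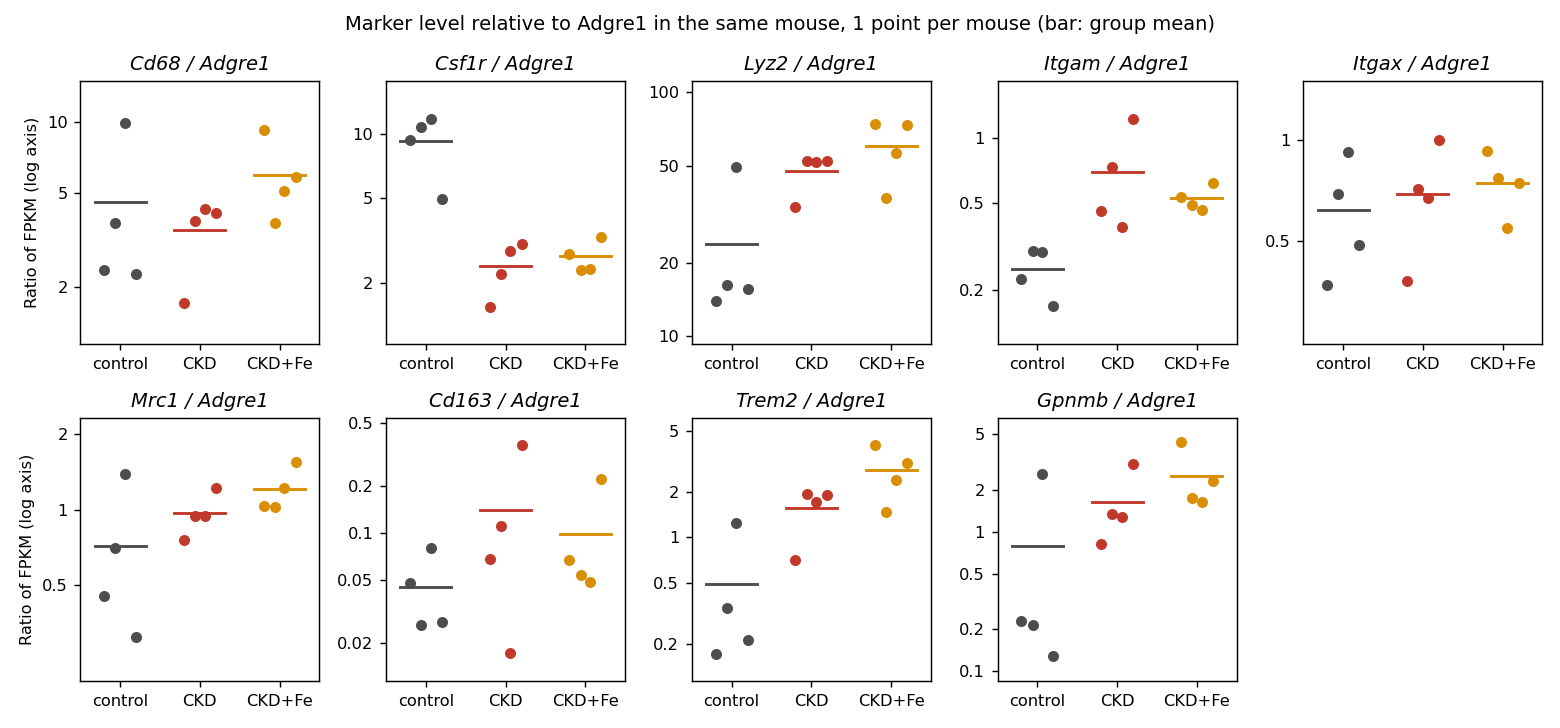
FPKM of 9 markers divided by the FPKM of Adgre1 in the same mouse (log axis), with 1 point per mouse and a bar at the mean of each group of 4. Csf1r per Adgre1 is lower in all CKD and CKD+Fe mice than in any control mouse, and Itgam per Adgre1 is higher in all of them.

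The next comparison asked whether weekly iron altered the markers in CKD. No marker was called in either direction in CKD+Fe compared with CKD mice (limma, 0 of 10, adjusted p from 0.876 to 0.996), none had an unadjusted p under 0.05, and the groups overlapped for all 10. Across all genes tested 0.00761% were called higher and 0% lower, and 3.28% and 2.73% reached an unadjusted p under 0.05 in those directions. Array quality weights also gave 0 of the 10, and after quantile normalization 1, Itgam, had an unadjusted p under 0.05. The median log2 fold change was 0.01 over the markers and -0.000503 over all genes.

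Itgam came nearest to a difference. It stood at 14.2, 9.95, 12.5 and 10.6 FPKM in CKD+Fe mice, a narrow range that lay inside that of CKD mice and wholly below their median of 17.7 FPKM. The log2 fold change was -0.47 with a 95% interval from -1.01 to 0.07 (exact permutation p = 0.286, n = 4 each). Adgre1 stood at 26.5, 20.3, 26.9 and 17.1 FPKM, with a log2 fold change of -0.22 and an interval from -0.72 to 0.28. Cd163, at 1.80, 1.10, 1.32 and 3.79 FPKM, had an estimate of -0.33 and an interval from -1.20 to 0.54.

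Trem2, Cd68 and Gpnmb, set together here after their values were seen, had the 3 highest estimates, with wide intervals. Trem2 stood at 108, 29.6, 64.4 and 52.9 FPKM in CKD+Fe mice, a log2 fold change of 0.59 (interval -0.28 to 1.45). Cd68 stood at 246, 75.3, 137 and 99.8 FPKM, a log2 fold change of 0.55 (interval -0.33 to 1.44). Gpnmb stood at 116, 35.3, 44.3 and 39.4 FPKM, a log2 fold change of 0.45 (interval -0.55 to 1.44). CKD+Fe mouse 1 was the highest for all 3, and without it the estimate for Gpnmb was 0.06, that for Trem2 0.29 and that for Cd68 0.24. The exact permutation p values at 4 mice per group were 0.314 for Trem2, 0.371 for Cd68 and 0.457 for Gpnmb. In the list of TREM2 partners and lipid handling genes the estimates went both ways, with a median of 0.04 over 12 genes, 0.71 for Fabp5, -0.03 for Ctsd, -0.14 for Cd9 and -0.60 for Spp1, and none was called.

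The remaining markers had estimates near 0. Mrc1 stood at 27.5, 20.8, 32.9 and 26.5 FPKM in CKD+Fe mice (log2 fold change 0.09, interval -0.36 to 0.54), and Csf1r at 72.7, 46.9, 62.9 and 56.2 FPKM (log2 fold change -0.05, interval -0.44 to 0.34). These intervals were the narrowest of the 10. Lyz2 stood at 1969, 745, 1515 and 1259 FPKM (log2 fold change 0.08, interval -0.75 to 0.91), and Itgax at 24.6, 15.6, 14.7 and 12.8 FPKM (log2 fold change -0.06, interval -0.60 to 0.48). With 4 mice per group, differences inside these intervals remain compatible with the values.

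Relative to Adgre1, 0 of the 9 markers passed the threshold between CKD+Fe and CKD mice, where 0.183% of all genes were called higher and 0% lower. The limma fit gave 3 with an unadjusted p under 0.05, each above 0 (Trem2 by 0.81, Cd68 by 0.77 and Gpnmb by 0.67), with exact permutation p of 0.143, 0.114 and 0.257 at 4 mice per group. Trem2 per Adgre1 was 4.07, 1.46, 2.39 and 3.10 in CKD+Fe mice, so 3 of the 4 lay above every CKD mouse and mouse 2 lay among them. With array quality weights Trem2 and Cd68 passed the threshold, at 1.21 and 1.20, and the share of all genes under these weights is not given.

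Compared with control mice, all 10 markers were also higher in CKD+Fe mice (limma, adjusted p from 1.13e-07 to 0.00864), where 54.4% of all genes tested were called higher and 11% lower. Every CKD+Fe mouse was above every control mouse for each marker, as it was for 50.3% of all genes. After median-of-ratios rescaling 26.1% of all genes were called higher and 29.3% lower, with 10 of 10 markers higher. Log2 fold changes ran from 1.38 for Cd163 to 5.0 for Trem2. This comparison uses the same control mice as the first, so the values do not stand as a second sample. The fit relative to Adgre1 called 5 of the 9 markers higher (Trem2, Lyz2, Gpnmb, Cd68 and Mrc1) and 2 lower (Csf1r and Cd163), beside 0.403% and 97.5% of all genes. Without control mouse 1 the fit called 3 higher (Trem2, Lyz2 and Gpnmb) and the same 2 lower. The share of all genes in that fit is not given, so these counts are not read as results about the markers. Trem2 per Adgre1 did not overlap between the groups, at 2.76 ± 1.11 in CKD+Fe and 0.492 ± 0.504 in control mice (exact permutation p = 0.0286, n = 4 each).

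The markers also varied together from mouse to mouse inside each group. CKD mouse 2 held the highest value of 8 of the 10 markers in its group, control mouse 3 of 7 and CKD+Fe mouse 1 of 7, and CKD+Fe mouse 2 held the lowest of 8. Deviations from the group mean of log2(FPKM + 1) were correlated over the 12 mice for each of the 45 pairs, as a description, since mice of 1 group share a mean and each library sets all its values. The median Pearson r was 0.50. Cd68 and Trem2 were the closest pair, at r = 0.97, and 9 pairs were over 0.8, among them Cd68 with Lyz2 at 0.91 and Csf1r with Trem2 at 0.90. Adgre1 and Cd163 followed the others least, with r between them of -0.22, while Cd163 moved with Itgam at 0.75.

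**Figure D4:**
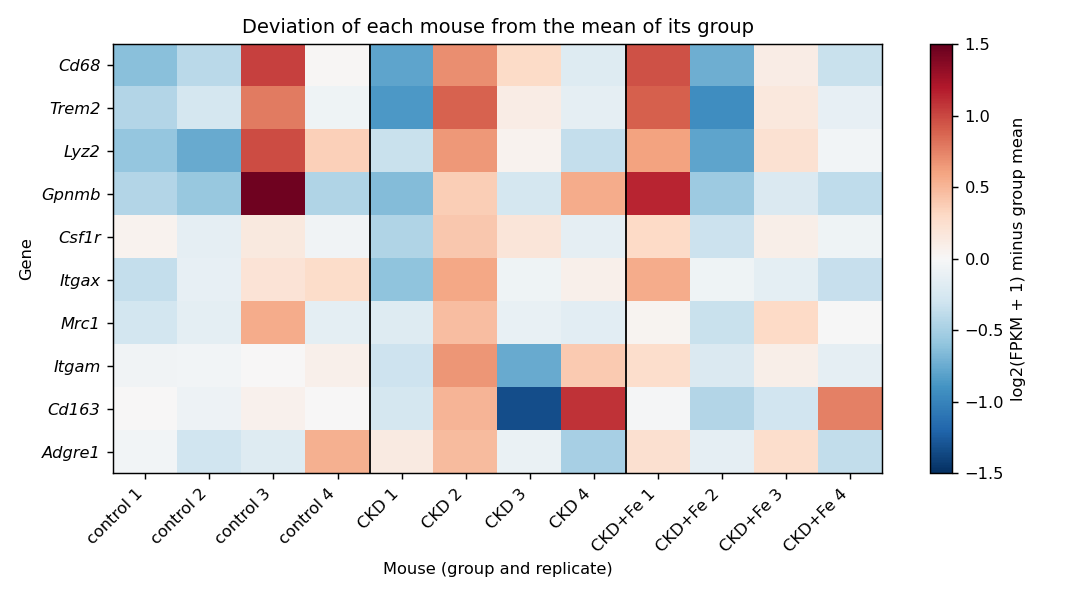
Log2(FPKM + 1) of each marker in each mouse minus the mean of its group, with red above and blue below the mean and lines between the groups. CKD mouse 2 is above the mean of its group for 10 of 10 markers and CKD+Fe mouse 2 for 0 of 10, while Cd163 is far below its mean in CKD mouse 3 and far above it in CKD mouse 4.

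Of 13122 other genes, those whose deviations were most like the average of the markers over the 12 mice were Ctss (Pearson r = 0.97), Stom (0.96), Mmp12 (0.96), Lilrb4a (0.95) and Adssl1 (0.94). Ctss encodes the lysosomal protease cathepsin S, Mmp12 the macrophage elastase and Lilrb4a an inhibitory receptor of myeloid cells. The mean of Mmp12 was 2.47 FPKM for control mice, 128 FPKM for CKD mice and 132 FPKM with iron, and that of Lilrb4a was 1.03, 24.5 and 30.1 FPKM.

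Beyond the markers, 84 other macrophage-related genes in 7 lists were examined, of which 83 were found and 72 passed the filter on low values. In CKD compared with control mice 60 of the 72 were called higher and 4 lower, beside 54.6% and 13.3% of all genes, with a median log2 fold change of 2.25. After median-of-ratios rescaling 56 were higher and 6 lower, beside 27.2% and 31% of all genes. The 4 lower genes, named after their values were seen, were Ace, Lpl, Nr1h3 and Tfec, and Ace and Lpl are also expressed by cells other than macrophages.

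All 12 pan-myeloid genes rose, with a median of 3.00. The 3 most abundant were Ctss, at 24.3 ± 7.17 FPKM in control and 440 ± 135 FPKM in CKD mice, the Fc receptor chain Fcer1g, at 27.0 ± 10.5 and 228 ± 102 FPKM, and Laptm5, at 10.8 ± 2.90 and 76.4 ± 27.3 FPKM. Of 9 resident macrophage genes tested 6 rose, a share near the 54.6% of all genes. With median-of-ratios rescaling 6 were higher and 1 lower, beside 27.2% and 31% of all genes. The complement genes C1qb and C1qa rose by 3.5 (SE 0.29) and 3.41 (SE 0.32), whereas Cd81, a widely expressed tetraspanin at 309 ± 61.0 and 326 ± 28.3 FPKM, did not pass the threshold. Of 10 monocyte genes 9 rose and 1 fell, with Plac8 up by 2.96 (SE 0.19), the endotoxin coreceptor Cd14 up by 3.61 (SE 0.29) and Ace, the angiotensin-converting enzyme, at a log2 fold change of -2.15 (SE 0.34).

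Of the 12 genes for TREM2 partners and lipid handling 9 rose and 1 fell, where 54.6% and 13.3% of all genes did. Osteopontin (Spp1), which injured tubules also make, went from 521 ± 114 to 15126 ± 3614 FPKM, Apoe from 147 ± 57.7 to 2377 ± 898 FPKM, and Cd63 had 1256 ± 165 and 1315 ± 158 FPKM and did not pass. Genes used as signs of alternative and of classical activation rose side by side. In the alternative list 8 of 9 rose, among them Stab1 by 2.37 (SE 0.35), Il4ra by 2.03 (SE 0.17) and Igf1 by 1.67 (SE 0.31). In the classical list 8 of 8 rose, with Socs3 up by 3.78 (SE 0.22), Il1b by 3.00 (SE 0.26), Tnf by 2.11 (SE 0.32) and Irf5 by 0.66 (SE 0.26). The rise of Irf5 was 0.09 after rescaling, when 7 of the 8 were called. Nos2 and Il6 did not pass the filter on low values and stood at 0.262 ± 0.0876 and 0.0114 ± 0.0228 FPKM in control mice and at 1.04 ± 0.512 and 1.55 ± 1.28 FPKM in CKD mice. Of the 12 factors that set the lineage 8 rose and 2 fell, shares near the 54.6% and 13.3% of all genes. After rescaling 7 of them were higher and 2 lower, beside 27.2% and 31% of all genes. Spi1 rose by 2.30 (SE 0.32), Il34 is given above, and Nr1h3 was at -1.05 (SE 0.18). Maf, at 30.5 ± 13.3 FPKM in control and 34.8 ± 6.80 FPKM in CKD mice, was not past the threshold.

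The antibodies of the macrophage gate in the study bind the products of Ptprc (CD45), Itgam, Fcgr1 (CD64), Cd24a and Ly6g, and H2-Ab1 encodes a chain of MHCII. Ptprc rose by 2.41 (SE 0.24) and Fcgr1 by 2.81 (SE 0.27). Cd24a, whose product excludes cells from the gate, rose from 114 ± 41.0 to 502 ± 56.5 FPKM, and tubule cells express it too. H2-Ab1 rose by 1.78 (SE 0.34).

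With iron, 0 of the 72 genes were called in CKD+Fe compared with CKD mice (limma), and an unadjusted p under 0.05 was reached by 3 that were higher and 7 that were lower, beside 3.28% and 2.73% of all genes, with a median of -0.06. Array quality weights gave 1, the monocyte gene Plac8, which was lower. Compared with control mice 63 were higher and 4 lower in CKD+Fe, beside 54.4% and 11% of all genes.

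**Figure D5:**
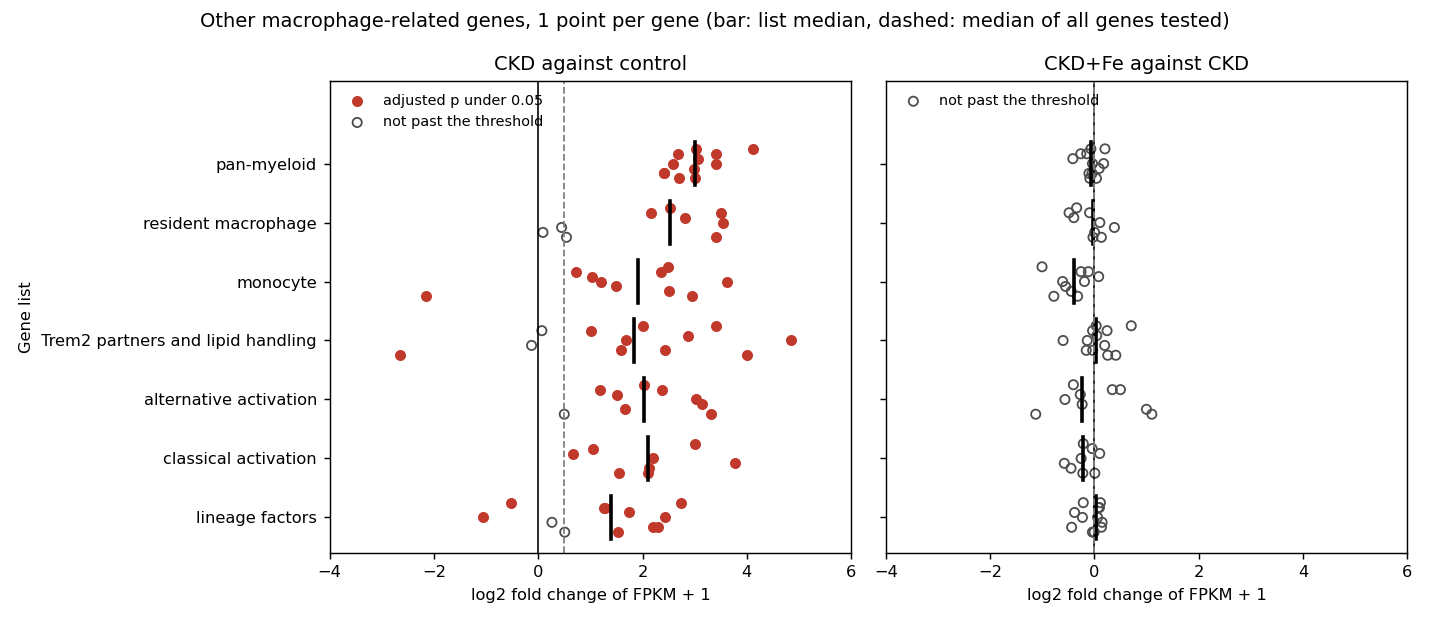
Log2 fold change of FPKM + 1 for the 72 other macrophage-related genes, with 1 point per gene, a bar at the median of each list and a dashed line at the median of all genes tested. Filled points have an adjusted p under 0.05 (limma), 64 of 72 in CKD against control mice (left) and 0 of 72 in CKD+Fe against CKD mice (right).

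Markers of other cells were summed in the same kidneys. The summed level of 6 T cell genes was 3.44 to 9.02 FPKM in control, 6.59 to 29.3 in CKD and 18.6 to 33.7 in CKD+Fe mice, that of 5 B cell genes 1.11 to 4.23, 2.51 to 6.50 and 5.35 to 7.80 FPKM, and that of 6 NK cell genes 2.78 to 6.57, 2.72 to 11.4 and 6.03 to 9.14 FPKM. For all 3 lists the range of CKD mice overlapped that of control mice and that of CKD+Fe mice. Neutrophil genes in CKD+Fe mice summed to 53.1 to 150 FPKM, overlapping the CKD mice. Proximal tubule genes summed to 2333 to 4094 FPKM in control, 394 to 740 FPKM in CKD and 466 to 1047 FPKM in CKD+Fe mice. Of the 8 genes 7 were called lower in CKD compared with control mice, where 13.3% of all genes were. The 6 endothelial genes summed to 96.2 to 189, 88.5 to 114 and 87.1 to 142 FPKM, with ranges that overlapped. Whether the mix of cells differed, and its part in the values of the macrophage markers, was not tested.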

How the data were processed

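Whole-kidney total RNA of each mouse was made into stranded mRNA libraries and sequenced with single-end reads of 50 cycles. Per the submitters' processing notes, bcl2fastq 2.19, STAR 2.5.2, Cufflinks 2.1.1 and the build GRCm38 were used, and the annotation is not given in the sources used here. The authors deposited FPKM for each protein-coding gene in each mouse, in 22053 rows, and 30 values in 17 genes marked as failed were treated as missing. Coordinates are those of the table. Of 21887 rows found in GENCODE M21, 77.2% have the same ends and 99.9% overlap the gene.

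Groups were taken from the labels, which name no batch and no sex. The 4 mice of a group are separate animals. Read counts were not used here, so a fit for FPKM was used in place of the count test of the study. Values were fitted as log2(FPKM + 1) by limma 3.58.1 in R 4.3.3 (empirical Bayes with a trend) with all 12 mice in 1 fit, over the 13148 genes that reached 1 FPKM in 4 or more mice, with Benjamini-Hochberg adjustment over all of them and a threshold of 0.05. All 10 markers passed this filter. The fit was tested on simulated data. A second fit subtracted log2(FPKM + 1) of Adgre1 in the same mouse. Single values were compared by exact two-sided permutation over all 70 arrangements (SciPy 1.17.1, Python 3.11.15), with a smallest p of 0.0286. FPKM give no counting error, and the depth is known only as a relative estimate.

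The markers, lists and tests were chosen with earlier results of these data known, so nothing here is an independent check of them. Every marker is named, and of each list the 3 most abundant genes, the gate and cytokine genes the study measured, receptor partners, Csf1r ligands and Spi1, beside genes named after their values were seen. Alternatives were a pseudocount of 0.1, no filter or a mean of at least 5 FPKM, quantile normalization or median-of-ratios rescaling, a fit of 2 groups alone, array quality weights, no trend, an adjusted threshold of 0.5, Csf1r as reference and each mouse left out. Leaving out the 3 mice farthest from their groups was added after the data were seen. Irf8 and the T cell gene Trac were not matched in the table.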

Additional observations from a re-analysis of the deposited data

Results flagged for a closer look

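Of the 30 groups of 4 values (10 markers in 3 groups), 4 held a mouse whose gap to the nearest other mouse exceeded Dixon's critical share of the range of the group. For independent, normally distributed values chance gives about 5%. The rule was applied to FPKM and not to the log values of the fits. The 10 markers also come from the same mice, so 4 of 30 cannot be set plainly against that 5%. Gpnmb was 4.44 FPKM in control mouse 3 and at most 0.467 FPKM in the other control mice, and Mrc1 was 2.40 FPKM in the same mouse and at most 1.09 FPKM in the others. Gpnmb was 116 FPKM in CKD+Fe mouse 1, and the next mouse of that group had 44.3 FPKM. Mrc1 was 34.7 FPKM in CKD mouse 2, and the next had 23.0 FPKM. Control mouse 3 and CKD+Fe mouse 1 were also the mice farthest from their groups over all genes, whereas CKD mouse 2 was not.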

How the results depend on the processing

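In CKD against control mice the direction and the call of all 10 markers held under all alternatives that tested them (a mean of at least 5 FPKM removed Cd163), and in CKD+Fe against control mice all but Cd163 did, which was 0.71 with adjusted p = 0.143 after quantile normalization (limma). Between CKD+Fe and CKD mice no marker was called under any alternative, and the sign of several small log2 fold changes turned. Leaving out each mouse gave -0.20 to 0.0843 for Csf1r, -0.00568 to 0.25 for Mrc1, -0.77 to 0.0333 for Cd163, -0.26 to 0.14 for Itgax and -0.12 to 0.35 for Lyz2. Array quality weights gave 0.0427 for Csf1r, and leaving out the 3 farthest mice gave -0.0232 for Gpnmb and -0.11 for Lyz2. The cause was not tested. Relative to Csf1r in place of Adgre1, 8 of 9 markers were called in CKD against control mice (5 relative to Adgre1). Array quality weights gave 2 called relative to Adgre1 between CKD+Fe and CKD mice (0 without them). The share of all genes called is not given for either setting, so these counts are not read as results about the markers. Of the 72 other macrophage-related genes, array quality weights gave 1 called between CKD+Fe and CKD mice and an adjusted threshold of 0.5 gave 2 (0 as reported). No paired analysis was possible because the labels number the mice individually and the groups share no numbers. With 4 mice per group the intervals given for CKD+Fe against CKD hold the differences that the values allow. They do not give the smallest difference that would have been called, since a call also had to pass the adjustment over 13148 genes.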

Other observations

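None of the 72 other macrophage-related genes was called between CKD+Fe and CKD mice. An unadjusted p under 0.05 (limma) was reached by 3 that were higher and 7 that were lower, beside 3.28% and 2.73% of all genes. Only 5 of these are given here, picked after their values were seen, so their directions do not stand for the set. Plac8, a small protein of monocytes and other leukocytes, stood at 110, 127, 83.5 and 92.1 FPKM in CKD+Fe mice and at 155, 227, 180 and 149 FPKM in CKD mice. The log2 fold change of Plac8 was -0.78 (SE 0.19, unadjusted p = 0.00134, adjusted p = 0.400 by limma). Fcgr4, an activating Fc receptor of monocytes and macrophages, stood at 14.7, 17.8, 15.8 and 11.1 FPKM in CKD+Fe mice. In CKD mice it stood at 23.4, 51.6, 36.7 and 19.1 FPKM. Its log2 fold change was -1.01 (SE 0.27, adjusted p = 0.400 by limma).

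Igf1, a growth factor that macrophages and other cells release, went the other way. It stood at 36.8, 14.0, 21.4 and 19.4 FPKM in CKD+Fe mice and at 10.3, 14.6, 8.57 and 8.69 FPKM in CKD mice, so 3 of the 4 CKD+Fe mice lay above every CKD mouse. The log2 fold change was 1.0 (SE 0.31, adjusted p = 0.505 by limma). Retnla, a secreted product of alternatively activated macrophages, stood at 2.16, 0.950, 2.32 and 6.33 FPKM in CKD+Fe mice and at 1.29, 0.310, 1.15 and 0.104 FPKM in CKD mice, which overlapped, with a log2 fold change of 1.10 (SE 0.35, adjusted p = 0.515 by limma). In the list of alternative activation, which holds both genes, 2 of 9 were lower at the same unadjusted threshold and 2 higher, and the median was -0.24. Arg1, the arginase used as a sign of that state, had 4.17 ± 2.39 FPKM in CKD+Fe and 11.7 ± 8.15 FPKM in CKD mice, a log2 fold change of -1.13 (SE 0.42, unadjusted p = 0.0185, adjusted p = 0.711 by limma).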
